A study of Homo sapiens with 2 samples.

Results

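Chromatin accessibility was examined at the promoters of 9 genes of the basic helix-loop-helix (bHLH) family, the neurogenins NEUROG1, NEUROG2 and NEUROG3, the NeuroD genes NEUROD1 and NEUROD2, ASCL2, ATOH1, OLIG1 and OLIG2. They were taken from 20163 protein-coding genes. The members were fixed by name, and any listed peak lying no more than 3 kb from the transcription start site (TSS) was taken as a promoter peak of the gene. This gave 9 of 114060 peaks in the DMSO library and 22 of 161184 peaks in the MAK683 library. The cells were G401, an established malignant rhabdoid tumor line that lacks SMARCB1, a subunit of the SWI/SNF chromatin remodeling complex. One culture was treated with DMSO, the solvent, and the other with MAK683, an inhibitor of the Polycomb complex PRC2 that works through its EED subunit, for 3 days. The series describes a dose of 3 μM. Both cultures were grown in DMEM with fetal bovine serum and 2-mercaptoethanol. There was 1 ATAC-seq library per group, so every difference is one between single cultures, without replicates, and no test between the groups was made.

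Proneural bHLH factors bind DNA as dimers with E proteins and start the differentiation of neurons and other cells from progenitors, while OLIG factors act in motor neuron and oligodendrocyte precursors. Notch signaling holds them in check through the HES and HEY repressors, and ID proteins take away their E protein partners. In cells outside these lineages such genes are textbook PRC2 targets, kept silent under trimethylated lysine 27 of histone H3. ATAC-seq does not read this mark. It reads accessibility through the Tn5 transposase, which inserts sequencing adapters where DNA is open. It counts DNA ends from many cells, so a larger share of cells with an open promoter and a wider opening in each cell cannot be told apart.

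The sequences under the peaks that carry the results are shown first, as 101 bp around the summit on the strand of the gene, in hg19 coordinates. The capitals mark E-boxes, the CANNTG motif that bHLH dimers bind. The set holds the tallest MAK683 promoter peak of NEUROG3 (chr10:71334553-71334653, upstream of the gene), OLIG1 (chr21:34442688-34442788, coding exon) and NEUROG2 (chr4:113436444-113436544, coding exon), and 1 of the 2 tallest at OLIG2 (chr21:34395910-34396010, upstream). For ATOH1 it holds the DMSO summit upstream of the gene (chr4:94749465-94749565) and the MAK683 summit in the coding exon (chr4:94750237-94750337), because the position of the summit differed between the libraries.
NEUROG3 in MAK683: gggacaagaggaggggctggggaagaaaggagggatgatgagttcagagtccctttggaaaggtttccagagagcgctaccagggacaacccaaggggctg
OLIG1 in MAK683: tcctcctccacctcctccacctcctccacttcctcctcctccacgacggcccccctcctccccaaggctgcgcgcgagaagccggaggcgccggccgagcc
OLIG2 in MAK683: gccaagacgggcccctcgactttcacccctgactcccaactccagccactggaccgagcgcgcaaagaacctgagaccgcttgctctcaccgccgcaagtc
NEUROG2 in MAK683: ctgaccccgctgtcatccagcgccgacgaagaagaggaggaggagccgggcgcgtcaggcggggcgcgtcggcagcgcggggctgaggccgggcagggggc
ATOH1 in DMSO: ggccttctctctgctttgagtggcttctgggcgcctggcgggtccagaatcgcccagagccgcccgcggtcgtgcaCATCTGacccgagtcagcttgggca
ATOH1 in MAK683: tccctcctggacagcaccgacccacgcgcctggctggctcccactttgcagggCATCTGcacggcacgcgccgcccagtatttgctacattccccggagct

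Both ATOH1 sequences held an E-box of the form CATCTG, and the other 4 sequences held none. Of the 7 members with a MAK683 promoter peak, 1 had an E-box in the 101 bp around its tallest summit, or 14.3%, against 29.0% of the 14076 such windows at all protein-coding promoters. The forms searched separately were CAGCTG, held by 0 of the 7 and 6.34% of all windows, CAGATG or its reverse complement CATCTG, held by 1 and 3.84%, and CATATG, held by 0 and 0.398%. CANNTG reads the same on both strands, and each of these forms is also counted as a CANNTG. Across all 22 MAK683 peaks of the members, 7 windows held an E-box. At ASCL2 both the DMSO and the MAK683 summit lay in an untranslated region, and no sequence is shown.

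The members are short genes in GC-rich surroundings. Their median length was 2273 bp against 27219 bp for all protein-coding genes, and each had 1 or 2 exons in its main transcript. Within 500 bp of the TSS their median GC content was 63.3%, between 51.4% at NEUROD1 and 72.5% at ASCL2, against 61.2% for all protein-coding genes. The ratio of observed to expected CpG dinucleotides had a median of 0.744 against 0.723.

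Height is given as the tags over the summit per 1000000 tags of the library after filtering (RPM), where 1 tag was worth 0.0602 RPM in DMSO and 0.0547 RPM in MAK683. The libraries held 16598348 and 18265284 such tags. The lowest peak listed in either library held 6 tags, and a weaker signal would not be seen. As a check of the line, SMARCB1 had no promoter peak in either library, while the ACTB promoter had 48 tags in DMSO and 45 in MAK683. Across all 16247 protein-coding genes with a promoter peak in either library, the log2 ratio, MAK683 over DMSO, had a median of -0.42, so most promoters were lower in MAK683. The values of the members are given beside that shift. Where a DMSO promoter peak was listed, its median height was 0.663 RPM at the members and 1.93 RPM at all protein-coding genes. Whether the shift depends on the DMSO height was not tested.

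A promoter peak was listed at 5 of the 9 members in DMSO, against 72.7% of all protein-coding genes, and at 7 in MAK683, against 78.7%, so the latter count is close to the background. Both libraries had one at NEUROG2, NEUROD2, ASCL2 and ATOH1. NEUROG3, OLIG1 and OLIG2 had one in MAK683 alone, NEUROD1 in DMSO alone, and NEUROG1 in neither. Of the 4 members without a DMSO peak, 3 thus had a MAK683 peak. The background is 28.8% of the 5503 protein-coding genes without a DMSO peak. Of the 5 members with a DMSO peak, 1 had none in MAK683, where the background is 2.54% of 14660 genes.

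**Figure D1:**
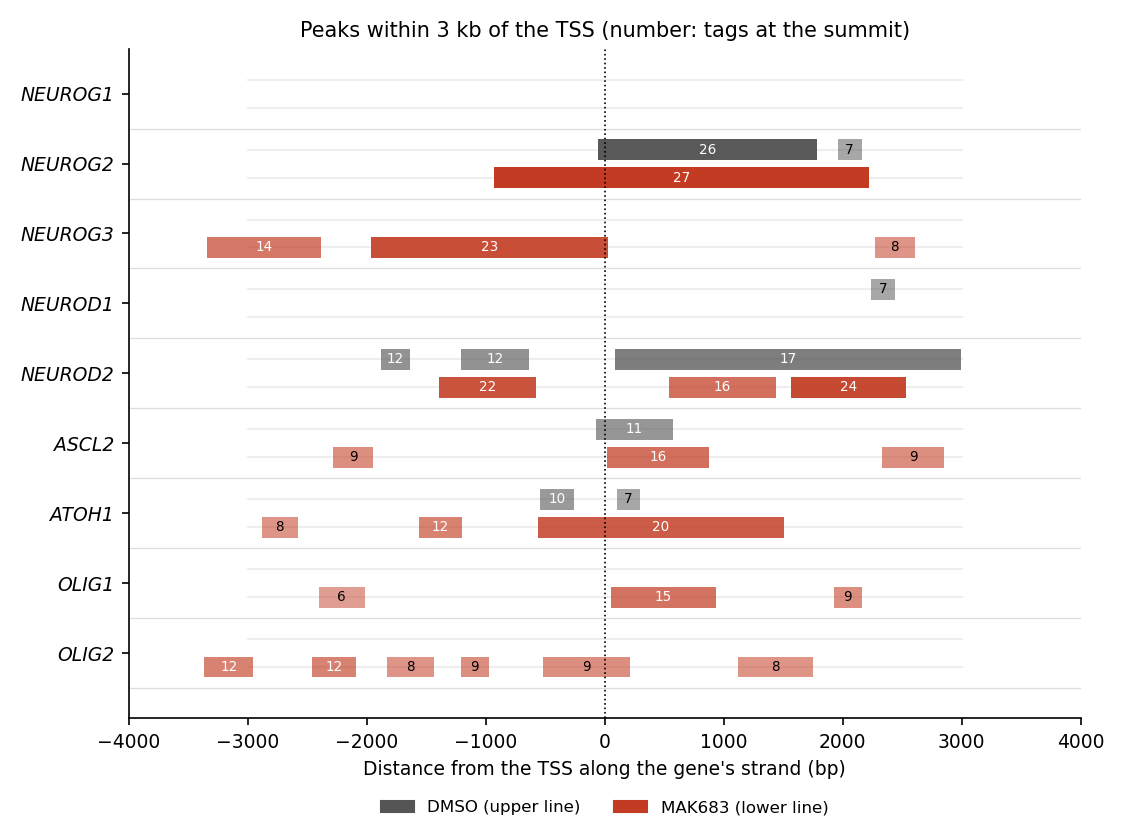
Promoter peaks of the 9 genes by distance from the TSS in bp along the strand of each gene, with DMSO in grey on the upper line and MAK683 in red on the lower line. The number in each bar is the tags at the summit, darker bars are taller, and the DMSO line is empty at NEUROG1, NEUROG3, OLIG1 and OLIG2 while the MAK683 line is empty at NEUROG1 and NEUROD1.

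Taller peaks went with MAK683 at most members. The tallest promoter peak was higher in MAK683 at 6 of the 8 members with a peak, against 21.5% of all protein-coding genes with one. For this count, where 1 library lacked a peak, its height was taken as 0.361 RPM, the height of the lowest DMSO peak, called the floor here. NEUROG3, OLIG1 and OLIG2 are among the 6 and had no DMSO peak, so the floor all but fixed their direction. Of the 4 members with a peak in both libraries, 3 were higher, against 13.5% of protein-coding genes with both. The height was at least 2-fold higher at 2 of the 8 members, NEUROG3 and OLIG1, where the background is 3.37%, and at least 2-fold lower at 0, where the background is 5.75%. With heights centred on the median of promoters that had a peak in both libraries, 8 members were higher and 0 lower, against 54.1% of all protein-coding genes with a peak. The 8 include NEUROD1, which had no MAK683 peak. Centring moved its ratio, taken with the floor, from -0.22 to 0.24, so its sign does not show a taller MAK683 peak. Without centring, the median log2 ratio was 0.63 over the 8 members and 0.38 over the 4 with a peak in both libraries, beside -0.42 and -0.46 over all protein-coding genes counted the same way. None of the 4 had a 95% counting interval of the log2 ratio above 0, which 0.931% of genes with both peaks had. The count of 2-fold differences rests on peaks that DMSO lacks, and so on the floor.

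**Figure D2:**
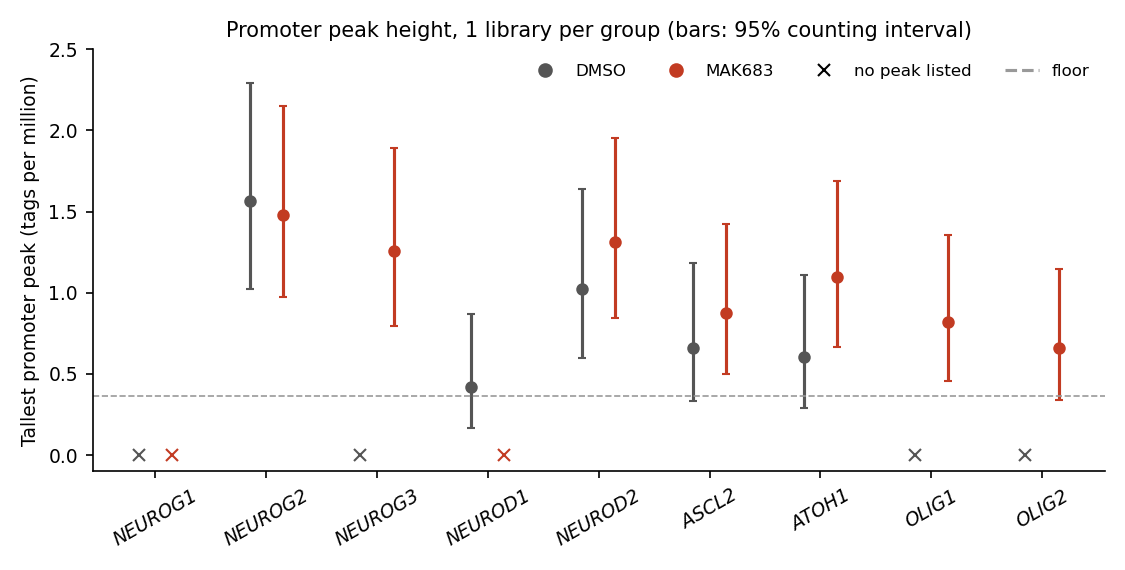
Height of the tallest promoter peak of each gene in tags per 1000000 (RPM), with grey for DMSO and red for MAK683, 95% exact Clopper-Pearson intervals as bars, crosses at 0 where no peak was listed and a dashed line at the floor of 0.361. The intervals of the libraries overlap at NEUROG2, NEUROD2, ASCL2 and ATOH1, and NEUROG3 has the tallest peak among the genes with a peak in MAK683 alone.

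The neurogenins start neuron formation in the nervous system, and NEUROG3 sets up the endocrine cells of the pancreas and gut. Each of the 3 had a different pattern. NEUROG3 (ENSG00000122859, chromosome 10, 71331454 to 71333178, minus strand) had no DMSO promoter peak and 3 in MAK683. The tallest, at 71333149 to 71335145, covered the TSS and reached 23 tags or 1.26 RPM (95% interval 0.798 to 1.89), with its summit 1425 bp upstream, within a long noncoding RNA gene. The others held 14 tags with the summit 2812 bp upstream and 8 tags at 2421 bp downstream. The ratio to the floor was 1.80 on the log2 scale, and ran from 0.48 with only peaks of a −log10 q of 10 or more to 2.77 with summed heights. In all, 1587 protein-coding genes had a promoter peak in MAK683 alone, and 3.09% of them had one of 23 tags or more, and their median was 11 tags.

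NEUROG2 (ENSG00000178403, chromosome 4, 113434672 to 113437336, minus strand) was the member with the tallest peak in both libraries. The DMSO peak over its TSS held 26 tags or 1.57 RPM (1.02 to 2.30), and the MAK683 peak 27 tags or 1.48 RPM (0.974 to 2.15). Counting error put the log2 ratio of -0.08 between -0.86 and 0.69, so no difference in height was detectable at this depth. The extent did differ: the MAK683 peak ran from 113435115 to 113438265, or 3151 bp, and the DMSO peak from 113435553 to 113437394, or 1842 bp. A separate DMSO peak of 7 tags lay under the downstream end of the MAK683 peak. The summit moved from an untranslated region 322 bp downstream of the TSS to the coding exon 842 bp downstream. The TSS of the antisense RNA gene NEUROG2-AS1 lies 749 bp inside NEUROG2, and the reads of both promoters cannot be told apart. NEUROG1 (ENSG00000181965, chromosome 5, 134869972 to 134871654) had no promoter peak in either library.

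The NeuroD factors act later, in neurons and endocrine cells that are already committed. NEUROD2 (ENSG00000171532, chromosome 17, 37759789 to 37766030, minus strand) had 3 promoter peaks in each library. The tallest held 17 tags or 1.02 RPM (0.597 to 1.64) in DMSO and 24 tags or 1.31 RPM (0.842 to 1.96) in MAK683, both with the summit in the coding exon, 2132 and 2201 bp past the TSS of its canonical transcript. On the log2 scale the ratio was 0.36, with an interval of -0.54 to 1.26, which includes 0. In DMSO the downstream peak was 1 block of 2906 bp, while MAK683 had separate peaks of 968 and 899 bp there. On the upstream side MAK683 had a peak of 22 tags at 721 bp from the TSS, and DMSO had 2 peaks of 12 tags each at 1011 and 1742 bp. NEUROD1 (ENSG00000162992, chromosome 2, 182533022 to 182545554, minus strand) had a single DMSO peak of 200 bp and 7 tags, 0.422 RPM (0.170 to 0.869), in its coding exon 2384 bp downstream of the TSS, and none in MAK683. The summit of this DMSO peak also lies within the gene CERKL. A peak of 7 tags is 1 tag above the lowest listed, so its presence in DMSO alone is close to what the depth can show.

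ASCL2 and ATOH1 act largely outside neurons as well, ASCL2 in intestinal stem cells and the placenta, and ATOH1 in hair cells, cerebellar granule neurons and secretory cells of the gut. ATOH1 (ENSG00000172238, chromosome 4, 94749904 to 94752115, plus strand) had DMSO peaks of 10 and 7 tags, the taller at 0.602 RPM (0.289 to 1.11). In MAK683 a single peak at 94749345 to 94751409, 2065 bp long, spanned both and reached 20 tags or 1.09 RPM (0.669 to 1.69). Peaks of 12 and 8 tags lay further upstream in MAK683, with summits 1394 and 2732 bp from the TSS. The log2 ratio of 0.86 had an interval of -0.23 to 1.96 that includes 0. ASCL2 (ENSG00000183734, chromosome 11, 2289728 to 2291818, minus strand) had 11 tags or 0.663 RPM (0.331 to 1.19) in DMSO and 16 tags or 0.876 RPM (0.501 to 1.42) in MAK683, with both summits within 184 bp of the TSS. This gave 0.40 on the log2 scale (-0.71 to 1.51). MAK683 had flanking peaks of 9 tags on either side of the gene, which DMSO lacked.

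OLIG1 and OLIG2 are neighbors, with TSSs 44204 bp apart, and their products specify oligodendrocyte precursors. OLIG2 (ENSG00000205927, chromosome 21, 34398243 to 34401504, plus strand) had 6 promoter peaks in MAK683 and none in DMSO, the most of any member. They held 8 to 12 tags. A peak of 9 tags covered the TSS, and the 2 tallest, of 12 tags or 0.657 RPM (0.339 to 1.15), lay upstream, at 2283 and 3301 bp. The second of these reached the window only with its edge. OLIG1 (ENSG00000184221, chromosome 21, 34442447 to 34444719, plus strand) also had no DMSO peak and 3 in MAK683. The tallest held 15 tags or 0.821 RPM (0.460 to 1.35), with its summit in the coding exon 291 bp downstream of the TSS, and no peak covered the TSS itself. The others held 6 and 9 tags. Against the floor the log2 ratios were 0.86 at OLIG2 and 1.18 at OLIG1. With only peaks of a −log10 q of 5 or more they were 0.12 and 0.45, and with summed heights 3.13 and 2.18. Of the genes with a peak in MAK683 alone, 39.9% were at least as tall as OLIG2 and 19.7% at least as tall as OLIG1. A long noncoding RNA gene overlaps both promoters.

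The whole OLIG locus differed between the libraries. In the 94.2 kb from 25 kb before the OLIG2 TSS to 25 kb after the OLIG1 TSS, DMSO had 0 peaks and MAK683 had 28, which covered 15448 bp. Their heights ran from 6 to 17 tags with a median of 10, and 3 had a −log10 q of at least 10. The tallest, of 17 tags or 0.931 RPM, lay 4818 bp after the OLIG2 TSS and 5702 bp after the OLIG1 TSS. Of the 28, 10 lay between the promoter windows of the genes. Of the 3139 protein-coding genes with no DMSO peak summit within 25 kb of the TSS, 1.37% had at least the 15 MAK683 summits of OLIG1 and 1.69% at least the 14 of OLIG2, and the median was 1. The windows of the genes overlap, so these values are not independent.

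**Figure D3:**
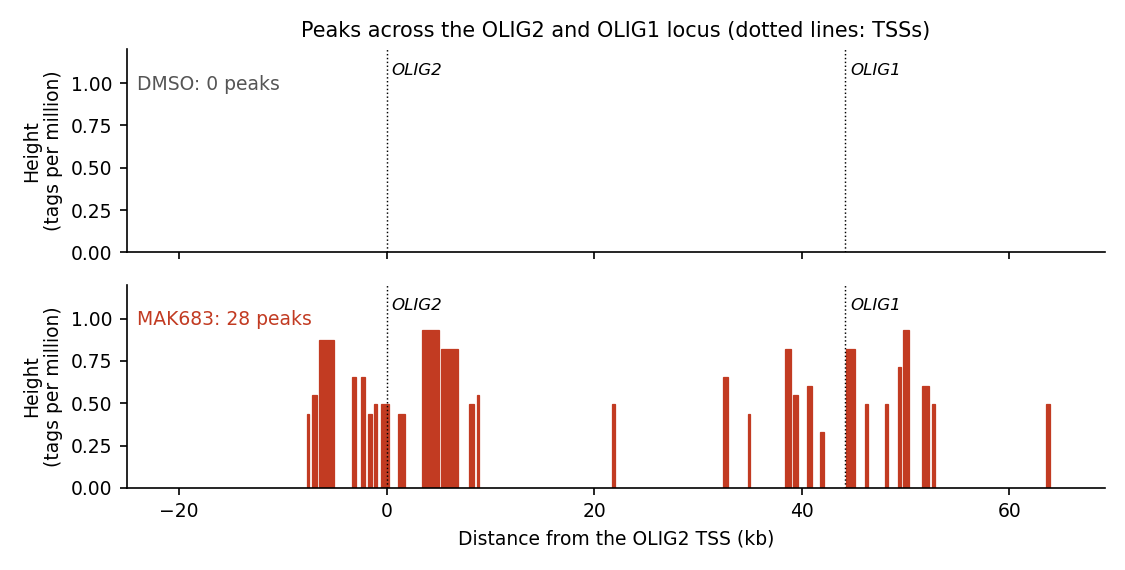
Peaks across the OLIG2 and OLIG1 locus by distance from the OLIG2 TSS in kb, with bar width showing the extent of each peak and bar height the RPM, for DMSO (upper panel) and MAK683 (lower panel). The upper panel holds 0 peaks and the lower panel 28, of 6 to 17 tags, and dotted lines mark the TSS of each gene.

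Covered length differed as well. Peaks covered more of the 3 kb on either side of the TSS in MAK683 at 6 of 8 members, against 32.0% of protein-coding genes with a peak. NEUROG3, OLIG1 and OLIG2 are among the 6 and had no DMSO peak, so their direction was fixed. They enter the DMSO median below as 0 bp. The 2 exceptions were NEUROD2, with 3732 bp in DMSO and 2675 bp in MAK683, and NEUROD1. In sum 7112 bp were covered in DMSO and 17174 bp in MAK683. The median per member was 346.5 bp in DMSO and 2549.5 bp in MAK683, while over all protein-coding genes with a peak it was 1880 and 1648 bp. Among genes with a peak in MAK683 alone, 5.17% were covered over at least as many bases as NEUROG3 (2953 bp), 8.82% as OLIG2 (2424 bp) and 22.4% as OLIG1 (1511 bp). Of the 9 DMSO promoter peaks of the members, 7 were overlapped by a MAK683 peak, or 77.8%, and of the 22 MAK683 peaks 6 were overlapped by a DMSO peak, or 27.3%. At all protein-coding promoters these shares were 74.2% and 74.8%. Of the 22 MAK683 peaks, NEUROG3 held 3, OLIG1 3 and OLIG2 6. With no DMSO peak at these genes, none of their peaks could be overlapped, so the low share largely restates that absence.

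The windows were then widened to 25 kb, which take in the promoter peaks. All 9 members had more peak summits within 25 kb of the TSS in MAK683 than in DMSO, against 37.0% of protein-coding genes, with a median of 7 against 2. The excess was 1 or 2 summits at NEUROG1, NEUROG2, NEUROD1, NEUROD2, ASCL2 and ATOH1, and 7, 14 and 15 at NEUROG3, OLIG2 and OLIG1. With the promoter peaks left out, a count added after the data were seen, 8 of the 9 had more summits in MAK683, against 33.9% of protein-coding genes. ASCL2 then had 0 in both libraries, and the excess was between 1 at ATOH1 and NEUROD2 and 12 at OLIG1. MAK683 had more peaks in the whole genome too, 1.41 times as many as DMSO. NEUROG1, which had no promoter peak, had 5 summits in DMSO and 7 in MAK683. The tallest, of 17 and 18 tags, lay 18083 and 16079 bp upstream within SLC25A48. Both sites had a peak in both libraries. A MAK683 peak of 18 tags overlapped the first, and a DMSO peak of 12 tags the second. Near NEUROD1 the tallest MAK683 peak held 28 tags and lay 21912 bp downstream, with no overlapping DMSO peak. Its summit was 1500 bp from the TSS of CERKL, a gene that overlaps NEUROD1.

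The same measure was then taken for other genes of the pathway. Among 12 further neural bHLH genes, 7 had a promoter peak in DMSO and 10 in MAK683, beside the 72.7% and 78.7% of all protein-coding genes. Of these 10, 7 were higher in MAK683, beside 21.5%, and 2 were at least 2-fold higher, beside 3.37%. The median log2 ratio was 0.52. Over the 7 with a peak in both libraries it was 0.12, beside -0.46 over all protein-coding genes counted the same way. NEUROD4, NEUROD6 and OLIG3 had a peak in MAK683 alone, with 10, 14 and 12 tags. They count as higher, but the floor all but fixed their direction. NEUROD6 counts as at least 2-fold higher only against the floor (log2 1.08). BHLHE22, a factor of cortical and retinal neurons, had the highest ratio, with 10 tags in DMSO and 24 in MAK683 (log2 1.12, interval 0.06 to 2.19), and NHLH1 the lowest, with 11 and 9 tags (log2 -0.43, interval -1.70 to 0.84). By distance on the log2 scale over the 2 libraries, PTF1A (0.602 and 0.821 RPM) and BHLHE22 (0.602 and 1.31 RPM) were nearest to the median pair of the members, 0.504 RPM in DMSO and 0.979 RPM in MAK683.

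Partners and inhibitors of these factors had ratios below 0 for the most part, as did 12737 of the 16247 protein-coding genes with a peak. All 3 E protein genes had a peak in both libraries, with 1 higher in MAK683, beside 21.5% of all protein-coding genes, and a median log2 ratio of -0.19. TCF12 was the lowest, with 30 tags in DMSO and 14 in MAK683 (log2 -1.24, interval -2.15 to -0.32), and TCF4 the highest, with 25 and 30 tags (log2 0.12). The 4 ID genes were all lower in MAK683, with a median of -0.55, from ID2, with 60 and 38 tags (log2 -0.80, interval -1.38 to -0.21), to ID3, with 54 and 51 tags (log2 -0.22). Of the 9 HES and HEY repressors, 7 were lower and 2 higher, with a median of -0.49. HES2 was the lowest at 19 and 11 tags (log2 -0.93, interval -2.00 to 0.14) and HEY1 the highest at 30 and 40 tags (log2 0.28, interval -0.41 to 0.96). The medians of the ID and of the HES and HEY lists lay close to the -0.42 of all protein-coding genes.

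Of the Notch ligands and receptors, 4 of 8 measured genes were higher in MAK683, beside 21.5% of all protein-coding genes with a peak. Their median log2 ratio was -0.08, beside -0.42. JAG1, a ligand, was the highest at 21 tags in DMSO and 33 in MAK683 (log2 0.51, interval -0.28 to 1.30). NOTCH1, a receptor, was the lowest at 21 and 15 tags (log2 -0.62, interval -1.58 to 0.33). Of 12 genes of the neuronal and oligodendrocyte lineages 9 had a peak, 5 were higher, beside the same 21.5%, and the median was 0.57. NKX2-2, a homeobox gene of the ventral spinal cord and of oligodendrocyte precursors, was the highest with 7 tags in DMSO and 20 in MAK683 (log2 1.38, interval 0.13 to 2.62). CSPG4, a surface proteoglycan of oligodendrocyte precursors, was the lowest with 40 and 19 tags (log2 -1.21, interval -2.00 to -0.42). SOX10, DCX and MYT1 had no promoter peak in either library.

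**Figure D4:**
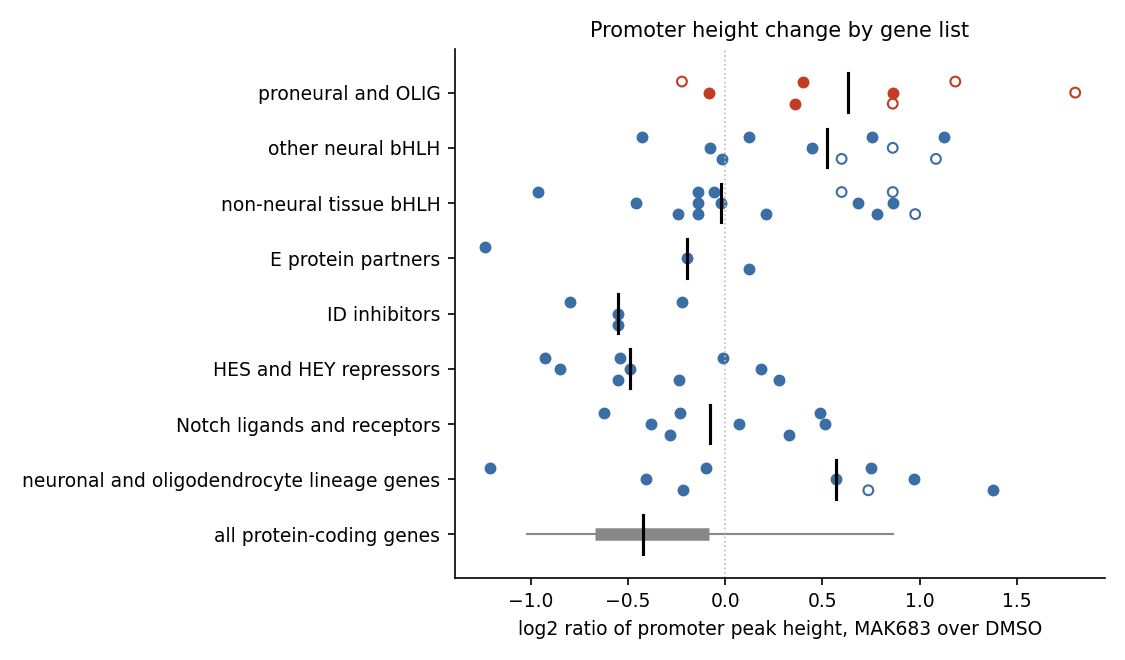
Log2 ratio of promoter peak height, MAK683 over DMSO, for each measured gene of 8 lists, with filled points for a peak in both libraries, open points for a peak in a single library (the other at the floor), and black lines for list medians. The bottom row gives the median (-0.42), the quartiles (thick bar) and the 5th to 95th percentiles (thin line) of all protein-coding genes, and the medians run from -0.55 for the ID genes to 0.63 for the proneural and OLIG genes.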

How the data were processed

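Per the labels, 1 DMSO and 1 MAK683 culture of G401 cells gave 1 ATAC-seq library each. Per the study's methods, the authors trimmed reads with Trim-galore and used Bowtie2 to align them to the hg19 genome. Peak calling was separate for each library, and per the file headers the authors used MACS 2.1.1.20160309, with tags shifted by -100 bp and extended to 200 bp, 1 tag kept per position, 1 background level for the whole genome and a q cutoff of 0.05. The study's methods name another version of this tool. The deposited pileup is a signal, the whole tags over the summit without scaling. Fold enrichment, as deposited, is a ratio to the background, and the deposited −log10 p and −log10 q values depend on depth; fold served only in an alternative, q in alternatives and to describe the OLIG locus, and p not at all.

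Heights were divided by the tags after filtering and multiplied by 1000000. TSSs came from GENCODE 44 lifted to GRCh37, the build also called hg19, with 1 TSS per gene, that of its canonical transcript where marked. Heights have exact Clopper-Pearson intervals and log2 ratios 95% intervals from the Poisson error of both tag numbers. They cover counting error only, since reads were not collapsed by molecular identifiers and may share a molecule. The interval code was tested on simulated data with 1 peak per gene and library and tag numbers set above those of the DMSO peaks. It was thus not tested at tag numbers as low as most of those here, nor with missing peaks. In each list except the members', the genes named were those with the highest and the lowest ratio; other genes named from these lists were chosen after their values were seen. The members and lists were chosen with earlier results of these data known. Alternatives changed the peak filter, TSS window and set, height scale and floor. A planned protein comparison was not run, as protein sequences were not used here. Python 3.11.15, numpy 2.4.6, pandas 2.3.3, scipy 1.17.1 and matplotlib 3.10.9 were used.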

Additional observations from a re-analysis of the deposited data

How the results depend on the processing

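The number of members higher in MAK683, 6 of 8, became 3 of 5 when peaks needed a −log10 q of 10 or more and 3 of 4 when both libraries had to have a peak. Of all protein-coding genes measured, 21.5% were higher in the main setting, and 12.0% and 13.5% under these alternatives. Members with a DMSO promoter peak went from 5 to 2 at a minimum −log10 q of 10. The number at least 2-fold higher, 2, became 1 at a minimum −log10 q of 5, 0 at a minimum of 10, 0 when both libraries needed a peak, 4 without depth scaling, 4 with heights centred on the median of shared promoters, and 5 with summed heights. The share of all protein-coding genes at least 2-fold higher is given above for the main setting only. A stricter filter and the demand for both peaks leave fewer peaks or genes by construction. Centring took all 8 measured members above 0, among them NEUROD1, which had no MAK683 peak. It took the share of protein-coding genes above 0 from 21.5% to 54.1%, and the median log2 ratio of the members from 0.63 to 1.09. This median stayed positive under all 13 alternatives, between 0.28 and 1.29. ATOH1 and NEUROD2 stayed higher wherever they gave a value. So did NEUROG3, OLIG1 and OLIG2, but these had no DMSO peak within 25 kb of the TSS. Their DMSO height was thus always a floor, which all but fixed the direction. The size moved: the log2 ratio of NEUROG3 ran from 0.48 to 2.77, of OLIG1 from 0.45 to 2.18, of OLIG2 from 0.12 to 3.13, of ATOH1 from 0.28 to 1.32 and of NEUROD2 from 0.23 to 0.82. ASCL2 reached -0.04, and NEUROG2 and NEUROD1 had both signs. No paired analysis was possible because each group has 1 library. At 6 to 27 tags per peak, depth limits every statement on a single promoter.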

Other observations

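Of 16 bHLH genes of other tissues, such as muscle, mesoderm and blood, 12 had a promoter peak in DMSO and 15 in MAK683, beside 72.7% and 78.7% of all protein-coding genes. On the log2 scale the height ratios, MAK683 over DMSO, had a median of -0.02, beside -0.42 over all protein-coding genes. In MAK683, 7 genes were higher and 8 lower, where 21.5% of all protein-coding genes with a peak were higher. None was at least 2-fold higher, beside 2 of the 8 measured proneural and OLIG genes, 2 of the 10 measured further neural bHLH genes and 3.37% of all protein-coding genes. These counts depend on the floor. NEUROG3, OLIG1 and NEUROD6 reached 2-fold only against it, while BHLHE22 had a peak in both libraries. Of the 4 proneural and OLIG genes with both peaks, 0 were at least 2-fold higher. MYF5, a muscle determination gene, had the highest ratio, with no peak in DMSO and 13 tags in MAK683. Its log2 ratio of 0.98 against the floor fell just short of 2-fold. LYL1, a blood factor, had the lowest, with 23 and 13 tags (log2 -0.96, counting interval -1.94 to 0.02). TCF21, a gene of kidney mesenchyme, and MSC also had a peak in MAK683 alone, with 12 and 10 tags. The difference between the lists was not tested.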
